A study of Mus musculus with 2 samples.

Results

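Immediate-early genes are the first genes a cell transcribes after a stimulus, and 10 of them were followed here across the cell types of the mouse lung. The set was the Fos genes Fos and Fosb, the Jun genes Jun, Junb and Jund, the related factor Atf3, the zinc finger factor Egr1, the immediate early response genes Ier2 and Ier3, and the phosphatase gene Dusp1. They were found by symbol among 55357 gene identifiers, and each symbol matched 1 identifier. All samples were lung of female BALB/c mice that carried an orthotopic tumour of K7M2, a mouse osteosarcoma cell line of BALB/c origin. A first group received PBS and a second received 1V209-Cho-Lip, described by the submitters as a nanomedicine that carries an agonist of the endosomal RNA sensor TLR7. Lungs of 3 mice per group were pooled into 1 droplet-based 10x Chromium library, so each group is 1 library, and treatment and library cannot be told apart for any value below. The labels give no age, dose, sampling time or dissociation method, and their extraction text names a total RNA kit beside the single-cell protocol.

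In GRCm38 the gene models lie apart on several chromosomes, except that Junb (chr8:84974484-84978718), Ier2 (chr8:84661331-84662852) and Jund (chr8:70698949-70700616) share chromosome 8, and Ier3 (chr17:35821684-35822923) and Dusp1 (chr17:26505590-26562128) share chromosome 17. Fos is at chr12:85473890-85477273, Fosb at chr7:19302696-19310051, Jun at chr4:95049034-95052222, Egr1 at chr18:34859823-34864984 and Atf3 at chr1:191170296-191218039. Jun overlaps the antisense gene Junos, Jund overlaps the antisense gene Gm11175 and Junb overlaps the end of Prdx2 on the other strand. Whether the authors' counting used strand is not given in the sources used here, so reads of these partners may be mixed. The Dusp1 model is long because annotated transcripts start far upstream, where it overlaps Ergic1 on the other strand. On its own strand it overlaps the pseudogene AC122252.4 and the intronic gene AC122252.1, which strand would not separate.

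Fos and Jun proteins pair through leucine zippers into the transcription factor AP-1, and Atf3 can join the same dimers. Transcription of these genes starts without new protein synthesis, through kinases of the MAP kinase family and the factors they phosphorylate, and their messenger RNAs decay quickly. Dusp1 closes the loop, since its product removes phosphate from the MAP kinases JNK, p38 and ERK. Toll-like receptor signals, growth factors, mechanical strain and tissue handling are all known triggers, and immediate-early RNA is widely seen in enzymatically dissociated tissue.

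Promoter sequence from RefSeq (GRCm38.p6) was matched for 8 of the 10 genes. The RefSeq start is that of the gene model for Fos and Jun and at most 30 bases from it for Fosb, Junb and Ier3. For Jund it lies 1210 bases upstream of the model's start, and for Atf3 and Dusp1, whose models include a farther transcript, 34706 and 53656 bases downstream, so windows and motif positions refer to the RefSeq start. The 250 bases before the start are printed for 4 of them, 5′ to 3′ on the gene's own strand, because these 4 cover the range of differences between the libraries described next: Dusp1 with a higher level in each class, Junb with a smaller difference, Fos within 1.5-fold in most classes, and Atf3 with differences in both directions. Capitals mark TGACG or its reverse complement CGTCA, the core of the site bound by CREB and ATF factors. The windows are chr12:85473640-85473889 (+) for Fos, chr8:84978749-84978998 (−) for Junb, chr1:191183334-191183583 (−) for Atf3 and chr17:26508473-26508722 (−) for Dusp1.
Fos: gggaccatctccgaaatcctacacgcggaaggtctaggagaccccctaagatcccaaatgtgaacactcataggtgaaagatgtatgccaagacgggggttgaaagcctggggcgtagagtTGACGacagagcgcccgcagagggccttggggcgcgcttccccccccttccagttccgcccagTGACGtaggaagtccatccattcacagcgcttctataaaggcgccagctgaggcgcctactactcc
Junb: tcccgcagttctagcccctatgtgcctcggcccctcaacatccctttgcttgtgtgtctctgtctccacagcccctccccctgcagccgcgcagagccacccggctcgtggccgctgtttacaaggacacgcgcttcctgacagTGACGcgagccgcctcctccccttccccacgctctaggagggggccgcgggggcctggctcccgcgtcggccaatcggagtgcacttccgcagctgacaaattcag
Atf3: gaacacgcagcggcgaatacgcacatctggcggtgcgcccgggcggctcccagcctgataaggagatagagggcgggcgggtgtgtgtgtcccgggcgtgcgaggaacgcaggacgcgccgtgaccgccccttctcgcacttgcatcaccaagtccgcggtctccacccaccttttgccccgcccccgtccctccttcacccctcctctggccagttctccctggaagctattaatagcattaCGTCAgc
Dusp1: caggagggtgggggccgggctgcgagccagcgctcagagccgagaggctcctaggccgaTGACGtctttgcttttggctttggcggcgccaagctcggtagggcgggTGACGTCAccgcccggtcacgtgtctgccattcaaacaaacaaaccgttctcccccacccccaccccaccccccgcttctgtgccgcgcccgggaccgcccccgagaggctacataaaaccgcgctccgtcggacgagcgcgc

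TGACG was found on either strand in 5 of the 8 windows, those of Fos, Fosb, Junb, Atf3 and Dusp1, against 17.8% of 32851 RefSeq promoter windows of the same length. The full palindrome TGACGTCA, which holds TGACG on both strands, was in the Dusp1 window alone among the 8, at positions -143 to -136 from the start, against 1.55% of all windows. A kB site was matched in Fos, Fosb and Ier3 (7.25% of windows) and GCGNGGGCG, a form of the Egr site, in Fosb (4.70%). The CArG box of serum response factor (1.47% of windows) and the AP-1 site TGANTCA (6.75%) had no match in these 8 windows. A match of letters is a description of the window and not a measured site, and a missing match says only that these letters are not in this window.

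The deposited matrices held 13740 barcodes and 54843992 unique molecular identifiers (UMIs, counted RNA molecules) for 1V209-Cho-Lip, and 14622 barcodes and 58156102 UMIs for PBS. After filters and doublet removal 12265 and 12654 cells remained, with a median of 2506 and 2198 UMIs. The libraries shared 268 barcode sequences. Cells were clustered without the 10 genes and clusters were named from marker genes as "X-like". Classes with under 50 cells in either library were set aside, and the 19 others ranged from 67 and 55 pericyte-like cells to 4437 and 1539 neutrophil-like cells (1V209-Cho-Lip first and PBS second throughout). Levels are counts scaled to 1e6 UMIs of a class (CPM) with exact Poisson 95% intervals, ratios carry exact conditional binomial 95% intervals, and shares carry exact Clopper-Pearson 95% intervals. These cover counting error only, and with 1 library per group no test between groups was made.

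Summed over all cells, RNA of each of the 10 genes was more abundant in the 1V209-Cho-Lip library. Of the 10, 8 were at least 1.5-fold higher and 0 at least 1.5-fold lower, where 14.0% of 20415 measured genes were higher and 20.2% lower by that fold. Dusp1 stood at 2537 against 328 CPM, a ratio of 7.74 (7.61 to 7.87), and 58 of 15376 genes with at least 100 UMIs had a higher ratio. Egr1 stood at 1237 against 302 CPM, a ratio of 4.10 (4.02 to 4.18), and 207 genes had a higher ratio. For both genes the intervals of the libraries lay far apart. Ratios of the other members were 2.09 for Junb, 1.99 for Ier3, 1.81 for Jun, 1.75 for Ier2, 1.73 for Fos, 1.55 for Fosb, 1.43 for Atf3 and 1.42 for Jund.

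These sums mix level and cell composition. In them more cells of a type and more RNA per cell cannot be told apart, and the treated library held far more neutrophil-like cells. The PBS library held more cells of some very deep unnamed clusters. One had 21 against 58 cells at a median of 70669 UMIs, and another 15 against 61 cells at 55018 UMIs. Their UMIs count in the whole-library totals to which each CPM above was scaled. With each class given the same share of cells in both libraries, 4 of the 10 remained at least 1.5-fold higher: Dusp1 at 3.41, Egr1 at 2.10, Jun at 1.77 and Ier3 at 1.72. The sums above weight a class by its UMIs and this setting weights it by its cells, so the weighting changed as well as the composition. Fos stood at 1.06 and Junb at 1.30 under equal shares. Without neutrophil-like cells, but with the unnamed clusters kept, 9 of 10 were at least 1.5-fold higher, with Dusp1 at 5.68 and Fos at 1.74. Without the unnamed clusters, but with neutrophil-like cells kept, 7 of 10 were, an alternative chosen after seeing the data. The comparisons below are therefore made within classes.

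Within classes, 98 of 190 gene and class pairs were at least 1.5-fold higher in the treated library and 3 were at least 1.5-fold lower. Of 156530 such pairs over all genes, 14.0% were higher and 11.4% lower by that fold. Car4 capillary endothelial-like cells, the broad thin capillary cells of the alveolus, had 10 of 10 higher, beside 13.4% of all genes measured in that class that were higher and 9.21% that were lower. General capillary endothelial-like cells had 9 higher (background 12.8% higher, 9.94% lower), fibroblast-like cells 8 (14.8%), AT1-like cells 8 (18.5%) and mesothelial-like cells 8 (20%). AT2-like cells, the surfactant-making epithelium, had 7 (11.6%, with 11.8% of genes lower) and smooth muscle or myofibroblast-like cells 7 (18.9%). Interstitial macrophage-like cells had 6 (13.5%), and pericyte-like cells had 6 where the background itself was 28.3%.

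The remaining classes held fewer. Conventional DC-like cells had 4 members higher (background 12.7%) and club-like cells 4 (24.4%, with 8.68% of genes lower). B-like cells (12.3% higher, 6.71% lower), T-like cells (13% higher, 5.66% lower), NK-like cells (13.9%, 10.8%) and large-vessel or lymphatic endothelial-like cells (21.2%, 19.1%) each had 3 higher and 0 lower. Within T-like cells, those gated on Cd4 UMIs had 3 members higher (background 14.9%) and 1 lower (6.63%), and those gated on Cd8 UMIs 4 higher (13.7%) and 0 lower (7.92%). Classical monocyte-like cells had 3 higher (12.4%) and 1 lower (7.45%), and nonclassical monocyte-like cells 3 higher (12.6%) and 1 lower (13.8%). Alveolar macrophage-like cells had 2 higher (9.49%, with 6.8% of genes lower). Neutrophil-like cells had 1 higher (11.3%) and 1 lower (23.5%), shares at or below the background, so the count in this class is no result about the set.

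**Figure D1:**
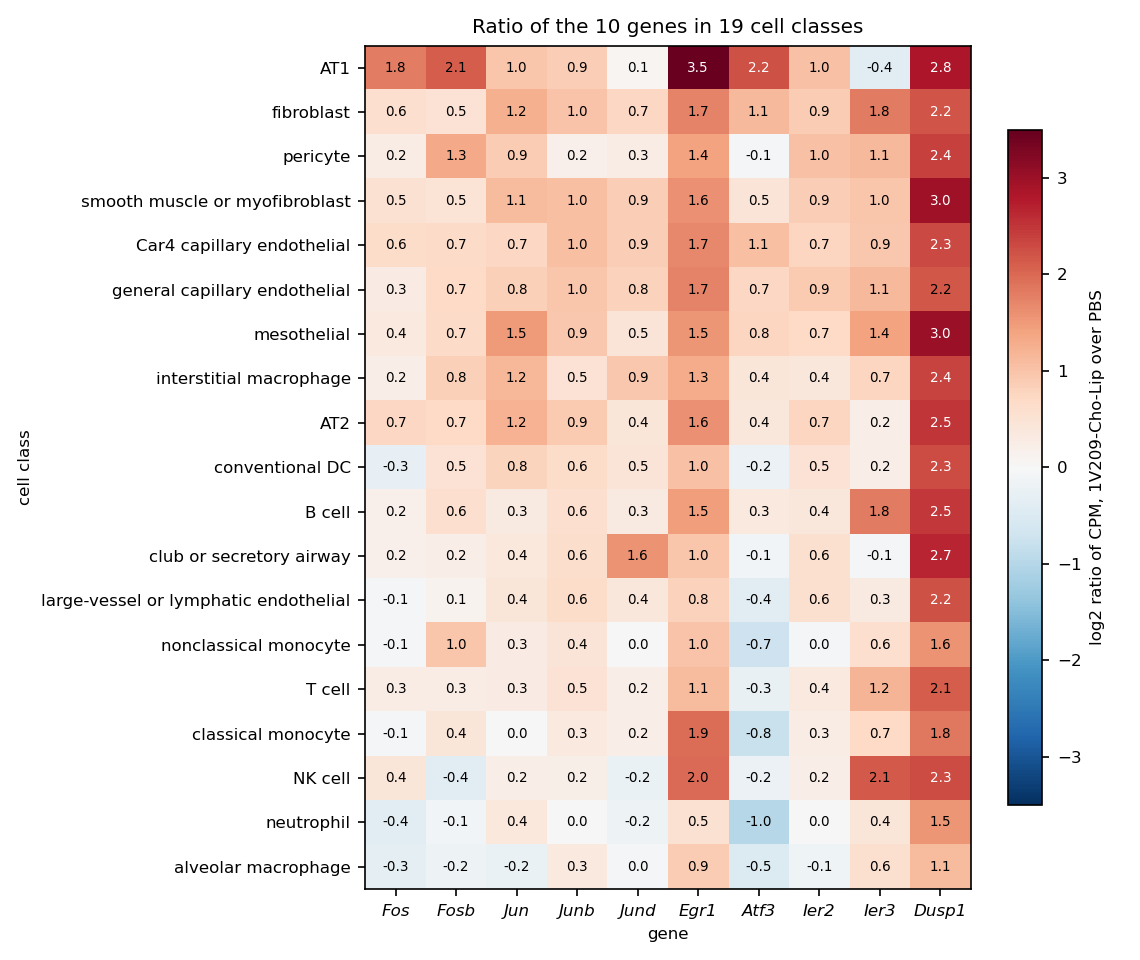
Log2 ratio of CPM, 1V209-Cho-Lip over PBS, for the 10 genes (columns) in 19 cell classes (rows, ordered by the median over the genes), with the value in each cell and colour from blue (lower) to red (higher). The Dusp1 column is red in all 19 classes and the Egr1 column in 19, whereas the Fos column is past 1.5-fold in 3 classes and the Atf3 column runs from red in AT1-like to blue in neutrophil-like cells.

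Fos, the founding partner of AP-1, was within 1.5-fold in 16 of 19 classes. Its level was highest in smooth muscle or myofibroblast-like cells, at 12922 against 8850 CPM, followed in the treated library by fibroblast-like cells at 6390 against 4289 CPM. It was lowest in NK-like cells, at 334 against 248 CPM. The order of the classes was alike in the libraries, with a rank correlation of 0.912 over 19 classes. Fos was at least 1.5-fold higher in 3 classes: AT1-like (1232 against 354 CPM, ratio 3.48), AT2-like (3440 against 2097 CPM, ratio 1.64) and Car4 capillary endothelial-like cells (2912 against 1868 CPM, ratio 1.56). The median ratio over classes was 1.19.

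The interval of the Fos ratio lay above 1 in 11 classes and below 1 in 4, beside 12.4% of the pairs of all genes above and 10.8% below. Neutrophil-like cells had 2893 against 3701 CPM, a ratio of 0.782 (0.763 to 0.800), the lowest of the 19. Alveolar macrophage-like cells had 810 against 1005 CPM, a ratio of 0.806 (0.771 to 0.842), and conventional DC-like cells a ratio of 0.818 (0.761 to 0.879). None of the 19 classes was past 1.5-fold lower. The whole-library ratio of Fos, 1.73, thus exceeded the ratio in 18 of 19 classes. It was 1.74 without neutrophil-like cells but with the unnamed clusters kept.

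Fosb, a second Fos protein with a similar zipper, was at least 1.5-fold higher in 8 classes and at least 1.5-fold lower in 0. Smooth muscle or myofibroblast-like cells again had the highest level, at 1498 against 1084 CPM. Interstitial macrophage-like cells had 584 against 326 CPM, a ratio of 1.79 (1.62 to 1.98), and general capillary endothelial-like cells 466 against 286 CPM, a ratio of 1.63 (1.51 to 1.77) that was 0.992 with clusters weighted equally. The highest ratio, 4.37 in AT1-like cells, rested on 102 against 9 UMIs. In neutrophil-like cells Fosb had 154 against 163 CPM, and those intervals overlapped.

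Jun, the AP-1 partner that JNK phosphorylates, was at least 1.5-fold higher in 10 classes, all of them structural, macrophage or dendritic. Mesothelial-like cells had 1771 against 634 CPM, a ratio of 2.79 (2.43 to 3.22). Fibroblast-like cells had 3577 against 1515 CPM (2.36), AT2-like cells 3114 against 1332 CPM (2.34) and interstitial macrophage-like cells 1311 against 582 CPM (2.25). General capillary endothelial-like cells had 3015 against 1677 CPM, a ratio of 1.80 (1.74 to 1.86). Neutrophil-like cells had the lowest Jun level of the 19 classes in both libraries, 110 against 85.3 CPM, and alveolar macrophage-like cells had 157 against 184 CPM.

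Junb, a Jun protein abundant in myeloid and lymphoid cells, was also at least 1.5-fold higher in 10 classes. The levels were highest in smooth muscle or myofibroblast-like cells, at 9959 against 4824 CPM, and next in neutrophil-like cells, at 4725 against 4724 CPM. The neutrophil-like ratio was 1.00 (0.980 to 1.02) on 53716 and 11134 UMIs, and the intervals overlapped. In Car4 capillary endothelial-like cells Junb was at 2129 against 1029 CPM (2.07), in fibroblast-like cells at 4696 against 2359 CPM (1.99) and in general capillary endothelial-like cells at 2720 against 1378 CPM (1.97). T-like cells had 1886 against 1336 CPM, a ratio of 1.41 (1.37 to 1.45), short of the fold used. The whole-library ratio of Junb, 2.09, was above that of each class, the highest of which was 2.07.

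Jund, the Jun protein usually present without a stimulus, was at least 1.5-fold higher in 6 classes. General capillary endothelial-like cells had 330 against 188 CPM (1.76), Car4 capillary endothelial-like cells 306 against 169 CPM (1.81) and interstitial macrophage-like cells 180 against 93.9 CPM (1.91). The order of classes by Jund level was the least alike between the libraries, with a rank correlation of 0.742, and the top classes had overlapping intervals in both. The highest Jund ratio, 2.97 in club-like cells, rested on 31 against 8 UMIs and was 0.863 in cells thinned to 1000 UMIs.

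Atf3, a stress-induced factor that can repress as well as join AP-1, was the member with differences in both directions. It was at least 1.5-fold higher in 5 classes and at least 1.5-fold lower in 3. Fibroblast-like cells had 1516 against 688 CPM, a ratio of 2.2 (2.04 to 2.38), Car4 capillary endothelial-like cells 1275 against 613 CPM (2.08) and general capillary endothelial-like cells 1769 against 1067 CPM (1.66, but 0.931 with clusters weighted equally). Mesothelial-like cells had a ratio of 1.70, and AT1-like cells 4.66 on 157 against 13 UMIs. Neutrophil-like cells had 348 against 701 CPM, a ratio of 0.496 (0.468 to 0.526). Classical monocyte-like cells had 502 against 854 CPM, a ratio of 0.587 (0.549 to 0.628), and nonclassical monocyte-like cells 524 against 861 CPM, a ratio of 0.608 (0.509 to 0.722). The interval lay below 1 in 7 classes and above 1 in 9. Among those below were alveolar macrophage-like cells, at 367 against 508 CPM (0.722), and large-vessel or lymphatic endothelial-like cells, at 1886 against 2491 CPM (0.757). Interstitial macrophage-like cells had more, at 1411 against 1057 CPM (1.33), so neither the endothelial nor the myeloid classes went 1 way. T-like cells gated on Cd4 UMIs had 46.6 against 84.6 CPM of Atf3 (0.551) and those gated on Cd8 UMIs 38.0 against 10.3 CPM (3.70), all below the erythroid-like level. Whether the difference between classes exceeds the variation between mice was not tested, since there is 1 library per group.

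Egr1, a zinc finger factor that responds to ERK, was higher in each of the 19 classes, and its interval lay above 1 in all 19. In 18 of them it was past 1.5-fold, with neutrophil-like cells the exception at 2127 against 1470 CPM, a ratio of 1.45 (1.40 to 1.5). Smooth muscle or myofibroblast-like cells had the highest level, at 7129 against 2331 CPM (3.06). Fibroblast-like cells had 2948 against 887 CPM (3.32), general capillary endothelial-like cells 1911 against 579 CPM (3.30) and AT2-like cells 1881 against 625 CPM (3.01). Classical monocyte-like cells had 229 against 59.2 CPM, a ratio of 3.86 (3.20 to 4.70), at levels no higher than the erythroid-like level given after Dusp1. The highest ratio, 11 (6.09 to 22.4) in AT1-like cells, rested on 315 against 11 UMIs. The levels there were 381 against 34.5 CPM, neither of them above the erythroid-like interval. The median ratio over classes was 2.73.

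Ier2, a nuclear immediate-early protein, was at least 1.5-fold higher in 8 classes, all structural. General capillary endothelial-like cells had 1825 against 960 CPM, a ratio of 1.90 (1.82 to 1.98), and fibroblast-like cells 1987 against 1082 CPM, a ratio of 1.84 (1.73 to 1.95). In neutrophil-like cells Ier2 stood at 1025 against 1033 CPM, a ratio of 0.992 (0.950 to 1.04), with overlapping intervals. Lymphoid classes lay between, at a ratio of 1.28 in T-like, 1.32 in B-like and 1.18 in NK-like cells.

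Ier3, a survival-associated gene that NF-kB also induces, was at least 1.5-fold higher in 11 classes. Fibroblast-like cells had 781 against 222 CPM, a ratio of 3.51 (3.09 to 4.0), mesothelial-like cells 541 against 203 CPM (2.66) and general capillary endothelial-like cells 1671 against 764 CPM (2.19). Classical monocyte-like cells had 697 against 426 CPM (1.64). The highest ratios, 4.40 in NK-like and 3.53 in B-like cells, were on 29 against 20 and 61 against 29 UMIs, at levels not above the erythroid-like interval. AT1-like cells were the 1 class with an Ier3 interval below 1, at 1082 against 1426 CPM, a ratio of 0.759 (0.677 to 0.851), while 8 other members were at least 1.5-fold higher in that class.

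Dusp1, the phosphatase that limits MAP kinase signals, was at least 1.5-fold higher in all 19 classes. The lowest ratio was 2.17 (2.02 to 2.34) in alveolar macrophage-like cells, at 494 against 227 CPM, and the highest was 8.19 (6.39 to 10.7) in mesothelial-like cells, at 1450 against 177 CPM. The median ratio was 4.90. Neutrophil-like cells had by far the highest level in both libraries, 6299 against 2155 CPM, a ratio of 2.92 (2.84 to 3.01). Fibroblast-like cells followed at 2927 against 631 CPM (4.64), and smooth muscle or myofibroblast-like cells had 2861 against 367 CPM (7.80). General capillary endothelial-like cells had 1890 against 416 CPM (4.54), AT2-like cells 1085 against 191 CPM (5.67) and B-like cells 572 against 103 CPM (5.55). T-like cells had 462 against 105 CPM, a ratio of 4.38 (4.04 to 4.76). The T-like, B-like and alveolar macrophage-like levels do not stand above the erythroid-like background. In none of the 19 classes did the intervals of the libraries overlap.

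**Figure D2:**
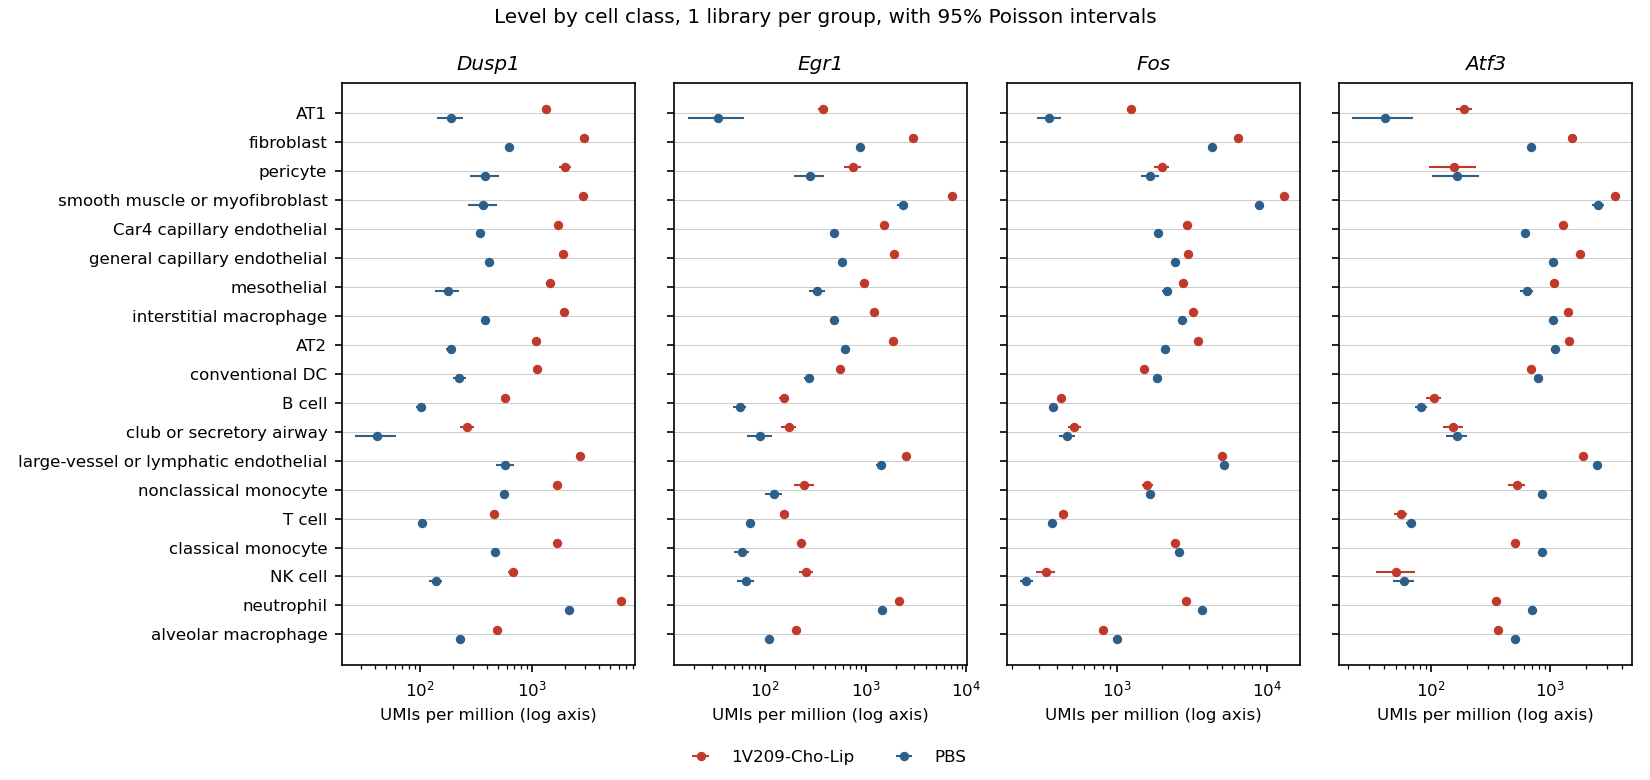
CPM (log axis) of Dusp1, Egr1, Fos and Atf3 in 19 cell classes, with red points for the 1V209-Cho-Lip library, blue points for PBS and 95% Poisson intervals as bars. The red Dusp1 point is to the right of the blue in each class, with neutrophil-like cells farthest right at 6299 and 2155 CPM, whereas the Fos points lie close together and the red Atf3 point is right of the blue in fibroblast-like cells (1516 against 688 CPM) and left of it in neutrophil-like cells (348 against 701 CPM).

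Droplet libraries carry free RNA from broken cells, which adds counts to cells that do not make a gene. As a reference for it, erythroid-like barcodes (33 and 49 cells), which are not known as a source of these genes, held 532 (320 to 830) against 124 (49.8 to 255) CPM of Dusp1, 308 against 832 CPM of Fos and 252 against 230 CPM of Egr1. The Dusp1 level was therefore higher in this reference too. Dusp1 in treated T-like, alveolar macrophage-like and club-like cells was at or below it. In treated B-like (572 CPM) and NK-like cells (678 CPM) it was within the interval. The levels of these classes do not stand above this reference. The reference is shallow, at a treated median of 853 UMIs against 3224 in T-like and 8196 in alveolar macrophage-like cells. The part of free RNA in these levels was not tested. Treated Egr1 was also at or below its erythroid-like level in B-like, T-like, alveolar macrophage-like, classical and nonclassical monocyte-like and club-like cells. Treated Atf3 was so in AT1-like, B-like, NK-like, T-like, club-like and pericyte-like cells. Treated Fosb was so in AT1-like, B-like, NK-like, T-like, club-like and nonclassical monocyte-like cells. Treated Ier2 was so in AT1-like, alveolar macrophage-like and club-like cells, and Junb in club-like cells. Treated Jun was so in 8 classes, among them neutrophil-like cells (110 against the erythroid-like 336 CPM). Ier3 stood at 28.0 against 212 CPM in this reference. Its treated level exceeded the treated upper bound (156 CPM) in 12 of 19 classes, and not in NK-like, T-like and B-like cells. In PBS, Ier3 was at or below the erythroid-like level in 10 classes. In PBS, Fos was at or below its erythroid-like level in 5 classes. Among these were AT1-like cells at 354 CPM, the base of their Fos ratio of 3.48. Treated Egr1 (381 CPM), Jun (438 CPM) and Junb (544 CPM) in AT1-like cells lay within their erythroid-like intervals. Of the members at least 1.5-fold higher in that class, only Fos and Dusp1 exceeded the treated upper bound. With pairs kept only where the treated level exceeded the upper bound of the treated erythroid-like level, a choice made after seeing the data, 72 of 121 were at least 1.5-fold higher and 2 at least 1.5-fold lower.

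Neutrophil RNA moved with the groups as well. Of the 3 neutrophil genes S100a8, S100a9 and Retnlg, 51 of 57 gene and class pairs were at least 1.5-fold higher in the treated library and 1 lower, and in classes other than neutrophil-like their summed level ran from 1223 to 5824 CPM in 16 treated classes and from 42.3 to 2893 CPM in the 18 PBS classes. Beyond that range stood treated smooth muscle or myofibroblast-like cells, at 12938 against 171 CPM, and large-vessel or lymphatic endothelial-like cells, at 17365 against 1768 CPM. After the neutrophil-like profile, scaled to the S100a8 count, was subtracted from each other class, 100 of 180 pairs were at least 1.5-fold higher and 2 lower. Dusp1 then stayed past 1.5-fold in 18 of 18 classes and Egr1 in 18 of 18. In general capillary endothelial-like cells the subtraction moved Dusp1 from 4.54 to 4.48 and Egr1 from 3.30 to 3.31.

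The classes contain clusters whose sizes differ between libraries, so ratios were also taken within clusters. General capillary endothelial-like cells fell mainly into cluster 3, with 210 treated and 1239 PBS cells, and cluster 6, with 977 and 201. In cluster 3 Fos was at 1040 against 2127 CPM (0.489), Atf3 at 360 against 882 CPM (0.408) and Ier3 at 475 against 725 CPM (0.654), each lower in the treated library. Egr1 in cluster 3 was at 482 against 482 CPM, a ratio of 1.00 (0.856 to 1.16). Dusp1 in cluster 3 was at 1071 against 422 CPM, a ratio of 2.54 (2.27 to 2.84), the only member whose interval lay above 1 there.

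In cluster 6 the members stood higher in both libraries. Dusp1 had 2226 against 462 CPM (4.82), Egr1 2345 against 1093 CPM (2.15) and Jun 3594 against 2262 CPM (1.59), while Fos had 3661 against 4279 CPM (0.856) and Atf3 2171 against 2070 CPM (1.05). The smaller cluster 13.1 (106 and 113 cells) had ratios of 2.21 for Fos, 7.11 for Egr1 and 5.04 for Dusp1. With the clusters weighted equally, the class ratio was 3.70 for Dusp1, 1.91 for Egr1, 1.34 for Jun, 1.26 for Junb, 0.931 for Atf3 and 0.777 for Fos. With cells gated one by one on marker UMIs and no clustering, it was 5.19 for Dusp1, 3.52 for Egr1, 1.90 for Jun, 2.06 for Junb, 1.75 for Atf3 and 1.32 for Fos. Cluster 6 held 977 of 1619 treated and cluster 3 held 1239 of 1706 PBS cells of the class.

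Neutrophil-like cells showed a narrower spread. In clusters 0, 1, 2 and 15, which held 1512, 692, 1493 and 360 treated cells against 228, 961, 132 and 134 PBS cells, the Dusp1 ratio was 3.64, 3.42, 3.23 and 3.03. Jun, at levels below the erythroid-like level, had ratios of 2.49, 2.2, 2.18 and 2.61 in them, although its ratio over the whole class was 1.29. Cluster 1, where Jun was most abundant at 249 against 113 CPM, held 961 of the 1539 PBS cells. Atf3 was at 0.653, 0.760, 0.611 and 0.832, closer to 1 than the class ratio of 0.496, and 0.729 with clusters weighted equally, which is short of 1.5-fold. Fibroblast-like clusters 18 and 19 (288 and 241 treated against 146 and 148 PBS cells) differed from each other, at 2.65 and 1.16 for Fos, 5.76 and 2.71 for Egr1, 7.18 and 2.71 for Ier3, and 6.35 and 3.58 for Dusp1. Interstitial macrophage-like cells included cluster 58, with 29 treated and 1 PBS cells at a median of 12322 UMIs. They also included cluster 29.3, with 0 treated and 23 PBS cells. The class ratios of these cells thus mix level and cluster make-up.

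**Figure D3:**
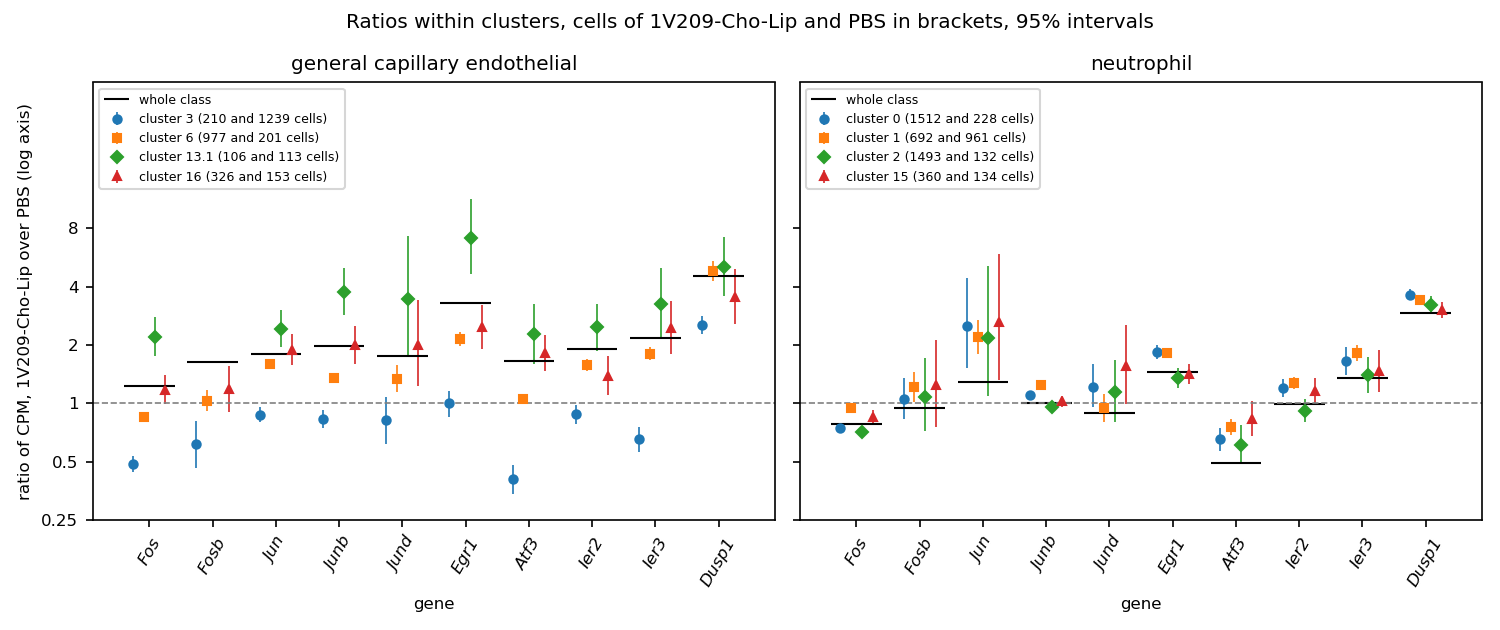
Ratio of CPM (log axis), 1V209-Cho-Lip over PBS, for the 10 genes within the clusters of general capillary endothelial-like (left) and neutrophil-like cells (right), with 95% intervals as bars and the class ratio as a black line. In the left panel cluster 3 lies no higher than 1.00 for 9 genes but at 2.54 for Dusp1, and in the right panel the Dusp1 points lie together between 3.03 and 3.64.

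To compare cells at the same depth, each was thinned to 1000 UMIs, leaving 11313 treated and 11297 PBS cells. A cell then held on average 4.27 of the 10 genes in the treated library and 2.70 in PBS. Averages were 5.54 against 3.57 in fibroblast-like cells, 5.0 against 3.29 in general capillary endothelial-like cells and 6.4 against 4.75 in smooth muscle or myofibroblast-like cells. They differed little in neutrophil-like cells (5.11 against 5.04) and alveolar macrophage-like cells (2.29 against 2.27). Cells with none of the 10 genes made up 3.9% of treated and 11.6% of PBS general capillary endothelial-like cells, and cells with at least 5 made up 52.3% and 30.4%. Within cluster 3 of that class the average was 2.74 against 3.07, and within cluster 6 it was 5.54 against 5.09.

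**Figure D4:**
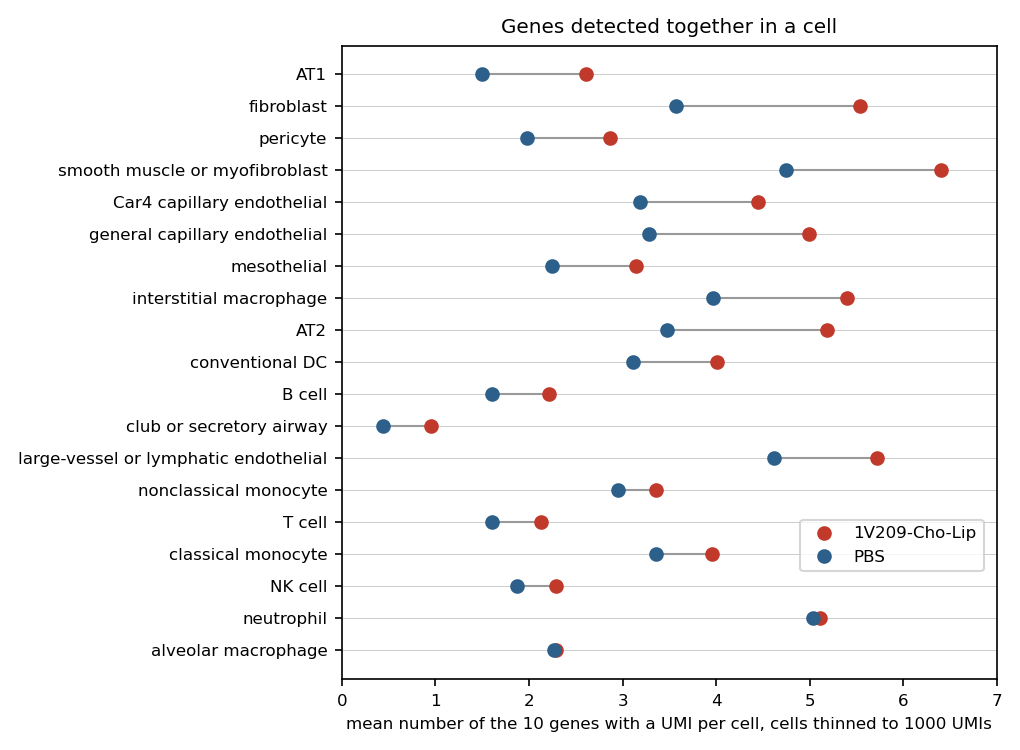
Mean number of the 10 genes with a UMI per cell in 19 classes, in cells thinned to 1000 UMIs, with red points for 1V209-Cho-Lip and blue for PBS joined by a line. The treated point is to the right in each class, by the most in fibroblast-like cells (5.54 against 3.57) and by the least in alveolar macrophage-like cells (2.29 against 2.27).

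Shares of cells with a UMI followed the levels. At 1000 UMIs Dusp1 was seen in 97.8% (97.3 to 98.2) of 4335 treated and 85.4% (83.4 to 87.3) of 1312 PBS neutrophil-like cells. In general capillary endothelial-like cells the shares were 66.3% (63.7 to 68.8) and 29.2% (26.9 to 31.6), and in T-like cells 30.8% and 10.0%. The same shares in erythroid-like cells were 14.3% of 14 and 11.1% of 18 cells, those with at least 1000 UMIs. Over all 33 and 49 erythroid-like cells the median depth was 853 and 817 UMIs. The interval of the treated share reached 42.8%, so 14 cells cannot show whether the treated T-like share exceeds this reference. In PBS the T-like share was below the erythroid-like one. Unthinned shares of Dusp1 were 99.3% and 91.8% in neutrophil-like, 75.1% and 44.4% in general capillary endothelial-like and 61.3% and 21.9% in T-like cells, beside 33.3% and 10.2% in erythroid-like cells. The Atf3 share in neutrophil-like cells was 24.7% (23.4 to 26.0) against 41.5% (38.8 to 44.2), and that of Fos 83.3% against 89.9%. At 1000 UMIs, of 173 gene and class pairs the treated interval was above the PBS one in 69 and below it in 3, beside 4.12% and 2.44% of 82575 pairs over all genes.

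Detection of the members ran together within endothelial and fibroblast-like cells. Among treated general capillary endothelial-like cells, 69.9% of 715 cells with a Fos UMI also held Egr1, against 23.1% of 657 cells without Fos. In PBS these shares were 41.8% of 622 and 7.4% of 824. Atf3 was in 66.9% against 17.8% of treated and 52.3% against 8.5% of PBS cells, and Junb in 82.9% against 39.4% and 68.5% against 19.3%. Dusp1 was in 79.6% of treated cells with Fos and 51.8% without, and in 39.1% and 21.7% of PBS cells. Intervals of cells with and without Fos were apart for 9 of 9 partners in both libraries, and within cluster 3 for 8 and 9 and within cluster 6 for 9 and 8 of the 9. In fibroblast-like cells they were apart for 9 and 7.

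Neutrophil-like cells did not show that split to the same extent. Among treated cells, Egr1 was in 78.3% of 3610 with and 71.4% of 725 without Fos, and Dusp1 in 98.2% and 95.9%. Intervals were apart for 5 of 9 partners in treated and 0 of 9 in PBS neutrophil-like cells, where 132 cells lacked Fos. In PBS the Dusp1 shares were 85.9% and 81.1%. Cells of 1 library are not replicates, so these shares describe each library.

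**Figure D5:**
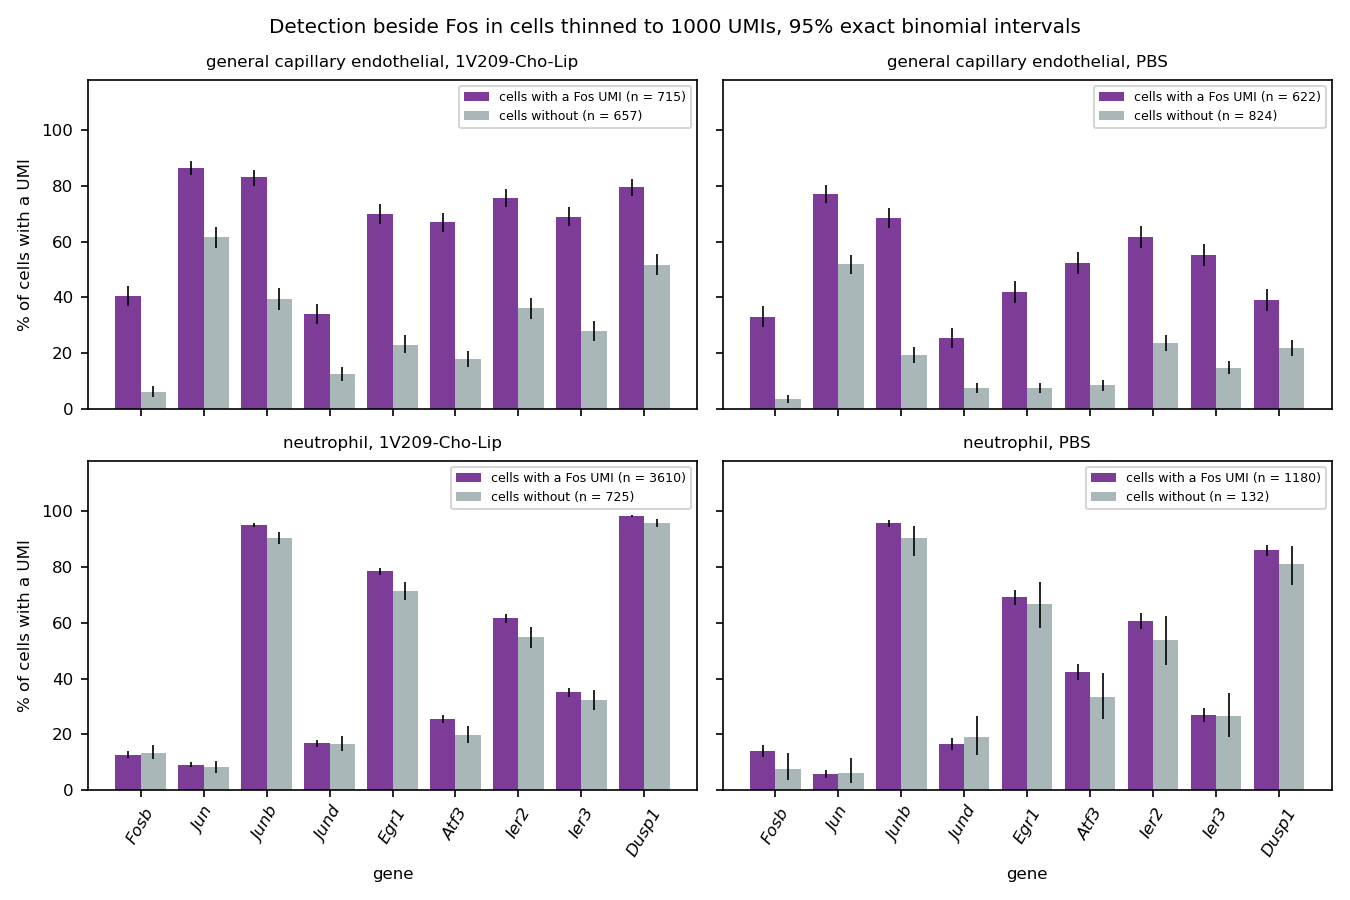
Percent of cells with a UMI of each of 9 genes among cells with Fos (purple) and without (grey), in general capillary endothelial-like (top) and neutrophil-like cells (bottom) of both libraries, thinned to 1000 UMIs, with 95% exact binomial intervals. In endothelial-like cells purple bars stand above grey for each gene, for Egr1 at 69.9% against 23.1% in the treated library, whereas in neutrophil-like cells the bars of a gene are close.

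Over 38 points (19 classes in both libraries), Pearson correlations of log2 (CPM + 10) between members ran from 0.364 for Ier3 and Junb to 0.912 for Atf3 and Fos. Fos and Fosb were at 0.904 and Ier2 and Junb at 0.874, while Dusp1 and Jun were at 0.379. Among genes outside the set with at least 500 UMIs, the profile most like Fos (0.927) and most like Atf3 (0.912) was that of Zfp36, which encodes an RNA-destabilising protein. Btg2, an antiproliferative gene, was closest to Junb (0.924). The gene closest to Dusp1 was Ets2 (0.867), to Egr1 Cebpd (0.852), to Jun Trip10 (0.882) and to Ier2 Socs3 (0.866). Fosb was closest to 2510009E07Rik (0.846), Jund to Zfp131 (0.837) and Ier3 to Wipi1 (0.753). The points share libraries, depth and free RNA, so these values only describe likeness.

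Other immediate-early genes differed by class. Of 22 such genes, 16 were at least 1.5-fold higher and 0 lower in fibroblast-like cells (median log2 ratio 0.88, against -0.05 for all genes there) and 16 and 0 in general capillary endothelial-like cells (0.95, against -0.04). In Car4 capillary endothelial-like cells 15 of 21 were higher and 0 lower. In AT1-like cells 6 of 18 were higher and 2 lower, in mesothelial-like cells 8 of 19 and 0, and in large-vessel or lymphatic endothelial-like cells 12 of 21 and 0, where 3 of the 10 members were higher. In fibroblast-like cells Nr4a3, a nuclear receptor, was highest at 393 against 105 CPM (3.74), and Zfp36 had 3536 against 2258 CPM (1.57). In neutrophil-like cells 1 of 22 was higher, Zfp36l1 at 135 against 47.5 CPM (2.83), and 5 were lower, with Gadd45b lowest at 306 against 639 CPM (0.478). Of all genes in that class 11.3% were higher and 23.5% lower, so these counts are no result about the list. Over all 19 classes 155 of 377 pairs were higher (41.1%) and 16 lower (4.24%), beside 14.0% and 11.4% of the pairs of all genes. In the whole library the range was from Trib1, a pseudokinase gene, at 2.85 to Myc at 0.593.

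Partners of AP-1 outside the set were higher in 56 (33.7%) and lower in 8 (4.82%) of 166 pairs, beside the 14.0% and 11.4% of all genes, which also stand against the pair counts of the lists that follow. The small Maf factor gene Maff had the highest ratio in fibroblast-like cells (411 against 61.2 CPM, 6.71), in general capillary endothelial-like cells (116 against 21.4 CPM, 5.42) and in smooth muscle or myofibroblast-like cells (6.13). Fosl2, the most abundant of this list in neutrophil-like cells, had 831 against 727 CPM (1.14). Kinases and factors upstream of the set were higher in 60 (18.1%) and lower in 29 (8.73%) of 332 pairs, near the background, with a whole-library median log2 ratio of -0.03. Map2k2, which activates ERK, had the highest ratio of that list in the whole library (2.72), in neutrophil-like cells (4.63) and in fibroblast-like cells (2.88).

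Other MAP kinase phosphatases and ERK feedback genes did not share the breadth of Dusp1: 30 of 134 pairs were higher (22.4%) and 14 lower (10.4%). Dusp16 was at 216 against 82.3 CPM in the whole library (2.63) but 616 against 623 CPM in neutrophil-like cells (0.987), and Dusp10 was at 0.541 in the whole library. In general capillary endothelial-like cells Spry4, a feedback inhibitor of receptor tyrosine kinases, had 285 against 112 CPM (2.55). AP-1 target genes were higher in 48 (34.8%) and lower in 18 (13%) of 138 pairs. In neutrophil-like cells the target Areg, an EGF receptor ligand, had 94.1 against 7.64 CPM (12.3), while Plaur, the urokinase receptor, had 2065 against 3100 CPM (0.666).

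Dusp1 also belongs to the genes that glucocorticoids induce, and a list of 10 others of that kind was higher in 67 (40.4%) and lower in 7 (4.22%) of 166 pairs. Cebpd, a C/EBP factor, had the highest ratio in fibroblast-like (3555 against 194 CPM, 18.3), neutrophil-like (799 against 53.5 CPM, 15) and general capillary endothelial-like cells (1322 against 118.5 CPM, 11.2), whereas Tsc22d3, the most abundant of the list, was at 1.27 in the whole library and Sgk1 at 0.774. Heat shock genes, which also respond to tissue handling, were higher in 25 (12.1%) and lower in 31 (15%) of 206 pairs, near the background. In the whole library Hsp90ab1 had 1112 against 2069 CPM (0.537) and Hspb1 44.4 against 8.61 CPM (5.15). The part of tissue handling in the values of the 10 genes was not tested.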

How the data were processed

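Single-cell RNA of mouse lung was analysed from 2 deposited count matrices, 1 library per group of 3 pooled mice. The authors made the counts of UMIs with Cell Ranger 9.0.1, per the file headers, on mm10, per the submitters' processing notes. The annotation release and the use of strand are not given in the sources used here. The 10 genes and all lists were chosen with earlier results of these data known.

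Barcodes under 500 UMIs or 200 genes, or with over 20% of UMIs mitochondrial, were dropped, which removed 20 treated and 62 PBS barcodes. Scrublet in scanpy 1.11.5 called 1455 (10.6%) and 1906 (13.1%) doublets, which were removed. Cells of both libraries were clustered on variable genes without the members and, class markers aside, the list genes (30 components, 15 neighbours, Leiden resolution 2), giving 82 clusters. A cluster was named from at least 3 markers and 50% of a type's markers at log2 1 or more above the rest, thresholds set after clusters had been seen. By this rule 4 clusters (212 and 171 cells) were mixed and 14 (369 and 415 cells) unnamed, and both stayed out of the classes.

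UMIs were summed per class and library and scaled to a total of 1e6. A ratio needed 20 UMIs over both libraries. With 1 library per group no test was made, and "higher" and "lower" in counts mean past 1.5-fold. All members are named. From every other list, naming was limited to the gene of largest UMI sum and to both extremes of the ratio in a described class, and for likeness to the 3 closest genes. The computation was tested on simulated data. Alternatives covered cell filters, doublets, resolution, denominators, scaling, thinning, single-cell gating, cluster weights, subtraction of a neutrophil profile, fold and UMI minimum. Other software was scipy 1.17.1, igraph 0.11.9, scikit-learn 1.9.0, pandas 2.3.3, numpy 2.4.6 and Python 3.11.15.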

Additional observations from a re-analysis of the deposited data

Results flagged for a closer look

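Atf3 pointed in opposite directions in different cell classes, and the difference between classes was not tested because each group is 1 library. Its ratio was 4.66 in AT1-like, 2.2 in fibroblast-like, 2.08 in Car4 capillary endothelial-like, 1.70 in mesothelial-like and 1.66 in general capillary endothelial-like cells. The last value was 0.931 with clusters weighted equally, 0.882 without the largest treated cluster and 0.408 within cluster 3. It was 0.496 in neutrophil-like, 0.587 in classical monocyte-like and 0.608 in nonclassical monocyte-like cells. Among T-like cells gated on Cd4 or on Cd8 UMIs, the ratios were 0.551 (46.6 against 84.6 CPM) and 3.70 (38.0 against 10.3 CPM, 40 against 23 UMIs). Both T-cell levels were below the erythroid-like level of Atf3, 252 against 159 CPM, as was the treated AT1-like level of 190 CPM. The part of free RNA in them was not tested.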

How the results depend on the processing

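Dusp1 stayed at least 1.5-fold higher in each class measured under every alternative planned and run, with its lowest class ratio at 1.66 (alveolar macrophage-like, single-cell gate). That gate measured Dusp1 in 16 classes. Egr1 was past the fold in 16 of 19 classes with doublets kept, 17 of 19 with per-cell means and 15 of 18 when thinned to 1000 UMIs. With TMM or median-of-ratios scaling it was past the fold in 19 of 19. TMM and median-of-ratios scaling moved the median gene of the whole library by -0.20 on the log2 scale and brought 10 of 10 members past 1.5-fold. Equal class shares of cells, which also replace weights by UMIs, left 4 members higher. Pairs at least 1.5-fold lower numbered 8 of 179 when thinned to 1000 UMIs and 5 of 165 with the single-cell gate, which covered 79.6% of cells. With a fold of 2, 57 pairs were higher and 1 lower. With at least 100 UMIs the lists gave 28 higher and 1 lower of 93 (AP-1 partners), 6 lower of 287 (other immediate-early), 37 and 6 of 208 (upstream kinases), 12 and 3 of 67 (phosphatases and feedback), 25 and 10 of 87 (AP-1 targets), 14 and 14 of 155 (heat shock) and 0 lower of 50 (neutrophil genes). Without thinning, 1 share was lower.

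Single ratios turned below 1 for Fosb (0.992) and Atf3 (0.931) in general capillary endothelial-like cells with clusters weighted equally, for Fosb in nonclassical monocyte-like (0.826) and Jund in club-like cells (0.863) when thinned, and for Junb in club-like (0.881), Ier2 in AT1-like (0.971) and Ier3 in T-like cells (0.962) with the single-cell gate. The cause was not tested.

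3 alternatives were chosen after seeing the data. Pairs above the erythroid-like level are given in the results. Leaving out unnamed clusters left 7 of 10 members higher in the whole library. Without the largest treated cluster of each class, 43 of 89 pairs were higher, Dusp1 in 9 of 9 and Egr1 in 8 of 9 classes, and in general capillary endothelial-like cells Jun (0.997), Atf3 (0.882) and Ier3 (0.893) turned below 1. No paired analysis was possible because each group has 1 library.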
